A study of Mus musculus with 6 samples.

Results

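Genes that drive fat cell formation and genes that store lipid were compared between mouse osteosarcoma cells that express a hairpin against Sox2 and cells with a scrambled hairpin. They comprised 10 genes, the transcription factors Pparg, Cebpa, Cebpb and Cebpd, the lipid uptake and handling genes Lpl, Cd36, Fabp4 and Acsl1, the triglyceride synthesis gene Dgat2 and the hormone gene Adipoq. The members were the 22 probe sets that name exactly 1 gene, and one of these, in the deposited table of 22690 probe sets. The comparisons were made over the 21556 probe sets that name 1 gene and are no array control, and over the 13213 genes these probe sets measure. The study hybridised RNA of mOS482 cells to Affymetrix mouse genome arrays, 1 array per culture. The mOS482 line comes from a mouse osteosarcoma that arose spontaneously and lacks Rb and p53. The Sox2 shRNA group (3 arrays) stably expressed a short hairpin RNA against the transcription factor Sox2, labelled Sox2shRNA900 (A), and the scrambled shRNA group (3 arrays) stably expressed a scrambled hairpin. Both groups had the same Rb and p53 null background, and both were infected, selected with hygromycin and grown to the same confluence. The labels describe the replicates as triplicate plates of the stably infected cells, with no separately infected lines named, so that p-values measure the spread between plates and not between independently derived lines. The series title places Sox2 in the maintenance of cancer stem cells, and the comparison asks what the hairpin against it changed.

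Fat cells and bone-forming cells share a mesenchymal precursor. In the formation of fat cells, C/EBP-beta and C/EBP-delta appear early and precede PPAR-gamma and C/EBP-alpha, which then maintain each other and the genes of lipid uptake and storage. PPAR-gamma binds DNA as a dimer with the retinoid X receptor, and Fabp4, Cd36, Lpl and Adipoq are among its classic targets in adipocytes.

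The deposited values are on a log scale taken as log2, and each probe set is centred near its scrambled values. Such values give differences between arrays and no levels, so that signal over background is unknown for every probe set here, and the osteoblast or adipocyte identity of the cells could not be checked by level. The median over the gene probe sets lay between 0.0293 and 0.0653 on the Sox2 shRNA arrays and between -0.0023 and 0.002 on the scrambled arrays. The probe set of the targeted gene read 0.17, 0.055 and 0.58 for Sox2 on Sox2 shRNA arrays 1 to 3, against 0.069, -0.039 and -0.033 on scrambled arrays 1 to 3, a log2 difference of 0.27 ± 0.14 (SE of limma, adjusted p = 0.154). No fall of Sox2 was measured, and directions below are those of the arrays labelled Sox2 shRNA. The mean of the 45 spike-in probe sets, which measure RNA added by the laboratory, was 0.67, 0.32 and 0.27 on the Sox2 shRNA arrays and 0.11, -0.060 and -0.10 on the scrambled arrays. This level did not overlap between the groups (two-sided exact permutation p = 0.1, the smallest that 3 against 3 arrays allow). A fit with this level as a covariate is given below where it ended a call.

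In the Sox2 shRNA arrays Lpl, Dgat2 and Cebpd rose and Pparg and Cd36 fell, while Cebpa, Cebpb, Fabp4, Acsl1 and Adipoq did not pass the test as genes. A gene's value is the average of its probe sets, each log2 difference is that of Sox2 shRNA over scrambled shRNA, and a gene was called where limma's adjusted p over all 13213 genes was under 0.05. Thus 3 of the 10 genes were called higher, where 16.8% of all genes were, and 2 were called lower, where 21.8% were. The 5 called genes are 50% of the 10, and 38.5% of all genes were called. The same 5 genes had groups that did not overlap, as had 56.9% of all genes. With each gene represented by its probe set of highest mean instead, 2512 of all genes were called higher and 1900 lower, against 2216 and 2874 with the average. As values are centred near the scrambled arrays, that mean follows a probe set's difference and not its level. This choice thus favours upward probe sets, and the median difference of all genes was 0.15 with it. Of the 22 probe sets 3 were called higher, against a background of 14.6%, and 5 lower, against 20.5%. Their joint share, 36.4%, lay beside 35.1% of all probe sets tested, so that the list as a whole stood close to the background. The median difference of the 10 genes was 0.11 and that of all genes 0.078. As the RNA is that of whole cultures, fewer cells with a transcript and less transcript per cell cannot be told apart.

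**Figure D1:**
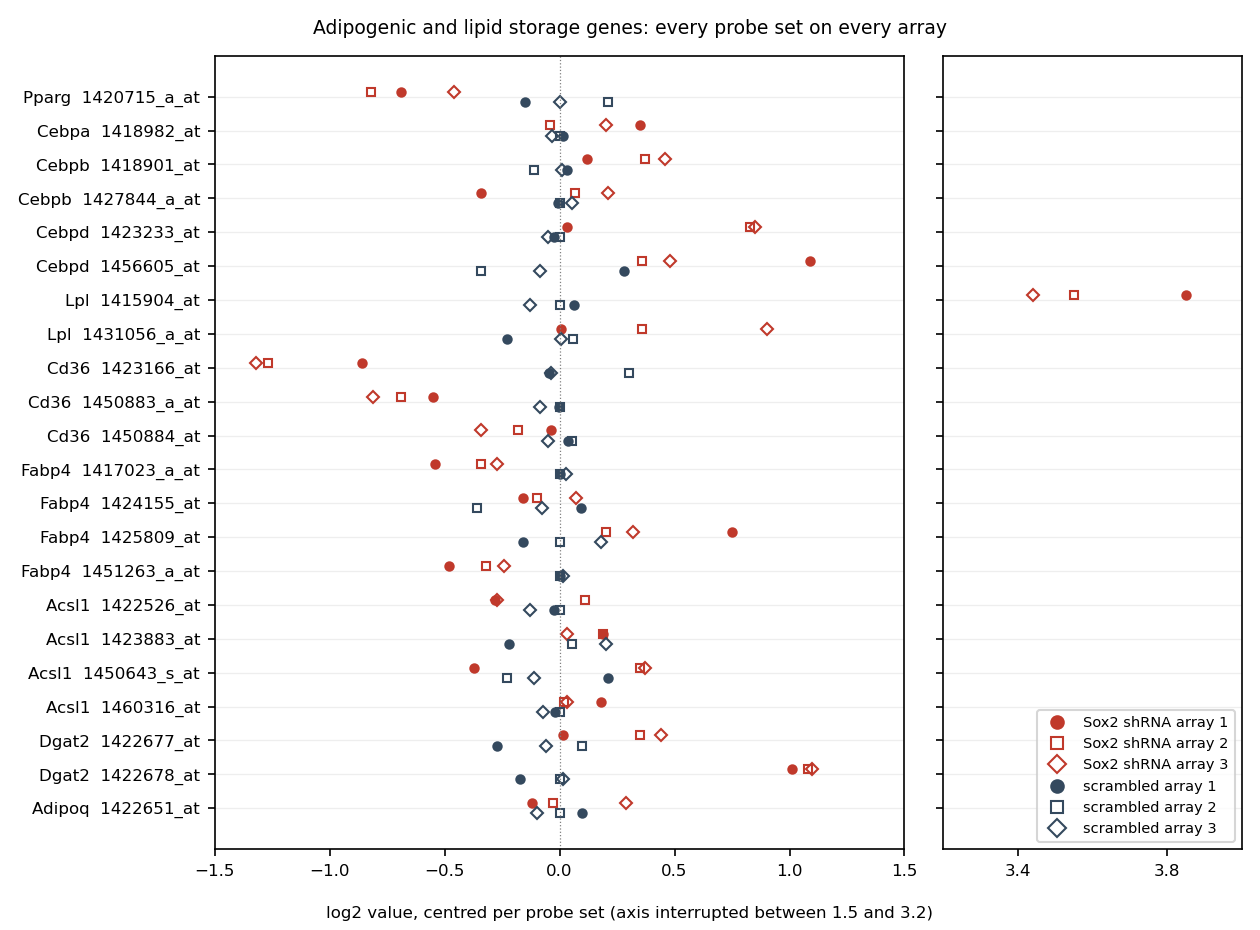
Centred log2 value (horizontal axis, interrupted) of each of the 22 probe sets on each array; red symbols are Sox2 shRNA arrays, dark symbols scrambled arrays, and the symbol shape gives the array number. The Lpl probe set 1415904_at lies between 3.44 and 3.85 on the Sox2 shRNA arrays, and the first 2 probe sets of Cd36 lie below all scrambled arrays.

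Pparg encodes PPAR-gamma, the nuclear receptor that directs adipocyte differentiation. Its single probe set, 1420715_a_at, aligned to chr6:115372083-115440417 on the plus strand in the deposited table (build not stated), read -0.69, -0.82 and -0.46 on Sox2 shRNA arrays 1 to 3, against -0.15, 0.21 and 0.0032 on scrambled arrays 1 to 3. The groups did not overlap, and the gene was 1.6-fold lower in Sox2 shRNA cells (-0.68 ± 0.13, limma adjusted p = 0.005, n = 3 arrays per group here and below). Pparg was called lower without each array in turn, with differences between -0.78 and -0.59. Adding the spike-in level to the fit ended the call (-0.50, adjusted p = 0.173), within adjusted p of 0.00387 to 0.173 over all alternatives. Pparg has several start sites, and a single probe set does not separate the transcripts.

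RefSeq (GRCm38.p6) gives promoters for 6 of the 10 genes, 9 promoters in all, and holds no entry here for Cebpd, Lpl, Fabp4 and Dgat2. The 250 bases before each start site of the genes that fell, Pparg and Cd36, are shown because C/EBP factors and PPAR-gamma are themselves among the genes measured. Capitals mark matches to TTNNGCAA, a relaxed C/EBP site, or to AGGTCA, the hexamer bound by nuclear receptors, read on either strand.
Pparg, first promoter: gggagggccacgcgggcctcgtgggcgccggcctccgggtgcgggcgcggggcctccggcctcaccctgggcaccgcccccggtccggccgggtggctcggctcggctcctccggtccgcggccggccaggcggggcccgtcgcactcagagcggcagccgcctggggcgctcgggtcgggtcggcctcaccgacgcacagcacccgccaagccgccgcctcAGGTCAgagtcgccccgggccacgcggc
Pparg, second promoter: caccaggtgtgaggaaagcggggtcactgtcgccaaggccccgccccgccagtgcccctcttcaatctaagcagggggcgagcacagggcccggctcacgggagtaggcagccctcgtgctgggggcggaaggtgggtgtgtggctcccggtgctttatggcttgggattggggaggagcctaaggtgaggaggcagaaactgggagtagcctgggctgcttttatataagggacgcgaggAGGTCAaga
Pparg, most downstream promoter: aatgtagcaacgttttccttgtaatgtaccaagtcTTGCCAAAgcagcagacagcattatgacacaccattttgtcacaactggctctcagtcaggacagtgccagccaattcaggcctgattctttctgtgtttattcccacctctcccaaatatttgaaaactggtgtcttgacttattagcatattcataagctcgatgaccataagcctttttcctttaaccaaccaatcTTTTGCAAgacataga
Cd36 promoter: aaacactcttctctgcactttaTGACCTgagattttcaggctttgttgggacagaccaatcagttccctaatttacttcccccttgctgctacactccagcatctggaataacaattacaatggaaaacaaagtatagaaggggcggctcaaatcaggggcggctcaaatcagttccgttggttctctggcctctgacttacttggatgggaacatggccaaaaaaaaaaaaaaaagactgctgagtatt
The first and second Pparg promoters, chr6:115360894-115361143 and chr6:115362099-115362348 on the plus strand, each held AGGTCA, beginning 28 and 9 bases before the start site. The most downstream one, chr6:115421816-115422065, held TTNNGCAA on both strands, as TTGCCAAA 215 bases and as TTTTGCAA 16 bases before the start. The Cd36 promoter, chr5:17835897-17836146 on the minus strand, held the reverse complement TGACCT 228 bases before the start. Among 32851 promoters of the same length, 14.0% held AGGTCA and 9.56% held TTNNGCAA. The full C/EBP palindrome TTGCGCAA (0.164% of all promoters, and overlapped by the relaxed form) and the direct repeat 1 site of PPAR and its partner, which repeats AGGTCA after 1 base (0.0335%), were in 0 of the 9 promoters. CATTGTT, a Sox motif found in 3.29% of all promoters, was in 1 of the 9, that of the second Acsl1 start site. These matches describe letters in a window and show no binding.

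Cebpd encodes C/EBP-delta, an early factor of adipocyte differentiation that also responds to inflammatory signals. The gene average was 0.56, 0.59 and 0.67 on Sox2 shRNA arrays 1 to 3 and 0.13, -0.17 and -0.068 on scrambled arrays 1 to 3, so that the groups did not overlap. Cebpd was 1.56-fold higher in Sox2 shRNA cells (0.64 ± 0.099, limma adjusted p = 0.0019). That small spread came from averaging probe sets that disagreed on array 1. Probe set 1423233_at, aligned to the plus strand at chr16:15887105-15888559, read 0.034, 0.83 and 0.85 on Sox2 shRNA arrays and -0.024, 0 and -0.051 on scrambled arrays (0.60 ± 0.21, adjusted p = 0.0596, not called). Probe set 1456605_at, aligned to the minus strand within the same span, read 1.09, 0.36 and 0.48 on Sox2 shRNA arrays and 0.28, -0.34 and -0.085 on scrambled arrays (0.69 ± 0.22, adjusted p = 0.0437). Array 1 was thus the lowest of the Sox2 shRNA arrays in the first and the highest in the second. The SD over the Sox2 shRNA arrays was 0.46 and 0.39 for the single probe sets and 0.053 for their average. Leaving out Sox2 shRNA array 1 brought the plus-strand probe set past the threshold (0.86, adjusted p = 1.6e-04), as did the spike-in covariate (1.33, adjusted p = 0.0105). The minus-strand probe set was not called without Sox2 shRNA array 1 or 3 (0.47 and 0.77) or scrambled array 2 or 3 (0.55 and 0.67). Nor was it called with median-centred arrays (adjusted p = 0.0513) or the trend and robust prior (adjusted p = 0.0515). It read -0.11 with the spike-in covariate, which thus moved the 2 probe sets in opposite directions. The gene was not called with that covariate either (0.61, adjusted p = 0.054, within 0.00138 to 0.054 over all alternatives). Which transcript the minus-strand probe set reports was not tested.

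Cebpa and Cebpb did not pass the test. Cebpa, whose product C/EBP-alpha sustains the mature adipocyte together with PPAR-gamma, read 0.35, -0.043 and 0.20 in Sox2 shRNA and 0.017, 0 and -0.032 in scrambled arrays (0.17 ± 0.11, adjusted p = 0.237), with overlapping groups. The average of Cebpb, the other early factor, was -0.11, 0.22 and 0.33 in Sox2 shRNA and 0.012, -0.054 and 0.032 in scrambled arrays (0.15 ± 0.12, adjusted p = 0.334). Its probe set 1418901_at did not overlap between the groups, at 0.12, 0.37 and 0.46 in Sox2 shRNA and 0.031, -0.11 and 0.0091 in scrambled arrays (0.34 ± 0.12, adjusted p = 0.0547). Non-overlap of that kind was found in 53.4% of all probe sets. The other Cebpb probe set, 1427844_a_at, differed by -0.035 ± 0.15, with -0.34 on Sox2 shRNA array 1. Without that array Cebpb was called higher (0.28, adjusted p = 0.0186, within 0.0186 to 0.699 over all alternatives). The 4 factors therefore did not move together. Pparg was lower, Cebpd higher, and the groups overlapped in Cebpa and Cebpb.

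Lpl encodes lipoprotein lipase, the secreted enzyme that frees fatty acids from circulating triglyceride, and had the largest difference of the 10 genes. Its average was 1.93, 1.96 and 2.17 on Sox2 shRNA arrays 1 to 3 and -0.082, 0.030 and -0.062 on scrambled arrays 1 to 3. This was 4.15-fold higher in Sox2 shRNA cells (2.05 ± 0.096, limma adjusted p = 7.3e-06) and placed Lpl at rank 93 of 13213 genes by difference. The rise was unequal between its probe sets, which span nearly the same stretch of chromosome 8 on the plus strand. Probe set 1415904_at (chr8:71404452-71430831) read 3.85, 3.55 and 3.44 in Sox2 shRNA and 0.062, 0 and -0.13 in scrambled arrays, 12.4-fold higher (3.63 ± 0.13, adjusted p = 2.4e-06). Probe set 1431056_a_at (chr8:71404412-71431347) read 0.0052, 0.36 and 0.90 in Sox2 shRNA and -0.23, 0.060 and 0.0046 in scrambled arrays (0.48 ± 0.21, adjusted p = 0.119). Sox2 shRNA array 1 was the highest in the first probe set and lay among the scrambled arrays in the second. The second was called higher once that array was left out (0.68, adjusted p = 0.014) or the spike-in level was added to the fit (1.21, adjusted p = 0.0187). Lpl as a gene was called under each of the 13 alternatives, with differences between 1.98 and 2.10 when single arrays were left out.

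Cd36 encodes a membrane receptor that takes up long-chain fatty acids and oxidised lipoproteins. Its average was -0.48, -0.72 and -0.82 on Sox2 shRNA arrays 1 to 3 and -0.0029, 0.12 and -0.057 on scrambled arrays 1 to 3, with no overlap. Cd36 was 1.62-fold lower in Sox2 shRNA cells (-0.69 ± 0.11, adjusted p = 0.00217). The 3 probe sets are aligned to the same span, chr5:17287507-17341714 on the minus strand, and fell to different degrees. Probe set 1423166_at read -0.86, -1.27 and -1.32 in Sox2 shRNA and -0.045, 0.30 and -0.036 in scrambled arrays (-1.22 ± 0.16, adjusted p = 9.3e-04). Probe set 1450883_a_at read -0.55, -0.69 and -0.81 in Sox2 shRNA and -0.00057, 0 and -0.086 in scrambled arrays (-0.66 ± 0.11, adjusted p = 0.0025). Probe set 1450884_at, at -0.038, -0.18 and -0.34 against 0.037, 0.052 and -0.050 in scrambled arrays, differed by -0.20 ± 0.11 (adjusted p = 0.186). Represented by that last probe set, the one of highest mean, Cd36 was not called as a gene (adjusted p = 0.186, the largest over all alternatives, the smallest being 2.7e-04). On centred values the highest mean belonged to the probe set that fell least. The lost call thus repeats that probe set's own result. The 2 uptake genes Lpl and Cd36 thus went in opposite directions.

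Fabp4 encodes the adipocyte fatty acid binding protein, also known as aP2. As the average of 4 probe sets it differed by -0.070 ± 0.082 (adjusted p = 0.51), with -0.11, -0.14 and -0.031 in Sox2 shRNA and -0.016, -0.090 and 0.037 in scrambled arrays. That average joined probe sets of opposite sign. Probe set 1417023_a_at (chr3:10204341-10208559, minus strand) read -0.54, -0.34 and -0.27 in Sox2 shRNA and 0.00022, 0 and 0.029 in scrambled arrays (-0.39 ± 0.11, adjusted p = 0.0219). Probe set 1451263_a_at (chr3:10204181-10206398) read -0.48, -0.32 and -0.24 in Sox2 shRNA and 0.0027, 0 and 0.016 in scrambled arrays (-0.35 ± 0.10, adjusted p = 0.0288). Both were called lower, but neither without scrambled array 1, 2 or 3 (differences of -0.40 to -0.35) nor with the spike-in covariate (-0.16 for each). Probe set 1425809_at (chr3:10206458-10208558) read 0.75, 0.20 and 0.32 in Sox2 shRNA and -0.16, 0 and 0.18 in scrambled arrays, higher without overlap but not called (0.42 ± 0.16, adjusted p = 0.0813). Probe set 1424155_at, aligned to the same span as 1451263_a_at, overlapped between the groups (0.051 ± 0.14). Sox2 shRNA array 1 held the most extreme value in each of the 3 probe sets whose groups did not overlap, and also had the highest spike-in level. Whether these go together was not tested.

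**Figure D2:**
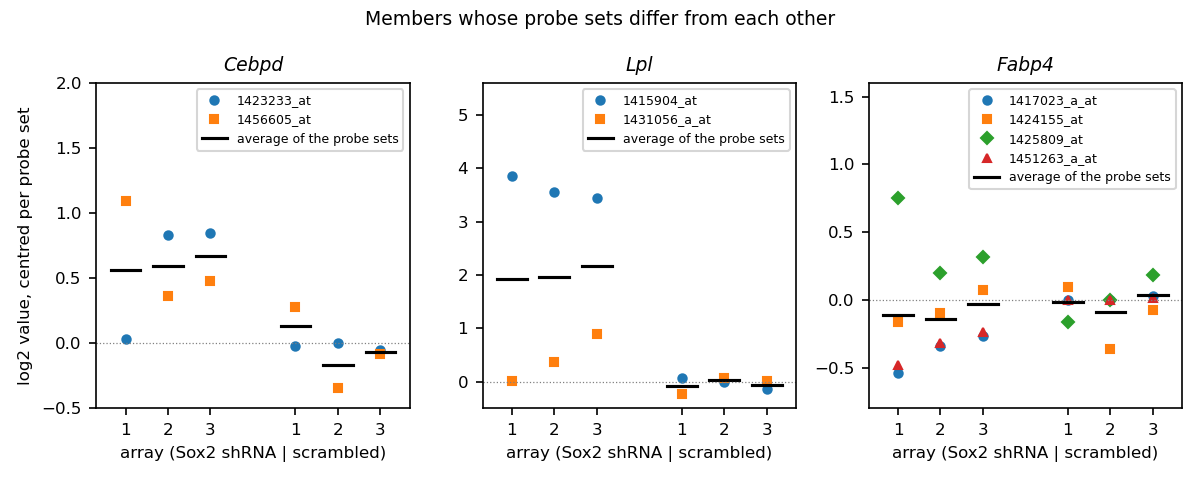
Centred log2 value of each probe set (symbols) and of their average (black bars) of Cebpd, Lpl and Fabp4 on Sox2 shRNA arrays 1 to 3 (left in each panel) and scrambled arrays 1 to 3 (right). The vertical scales differ between panels. The Cebpd averages of the Sox2 shRNA arrays lie between 0.56 and 0.67 although the single probe sets range from 0.034 to 1.09.

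Acsl1 encodes a long-chain acyl-CoA synthetase, which activates fatty acids for storage or oxidation. None of its 4 probe sets was called, and their differences lay between -0.095 and 0.16. The gene average was -0.070, 0.17 and 0.041 in Sox2 shRNA and -0.013, -0.045 and -0.027 in scrambled arrays (0.075 ± 0.090, adjusted p = 0.518), with overlapping groups. In 1450643_s_at Sox2 shRNA array 1 read -0.37 and arrays 2 and 3 read 0.35 and 0.37, against 0.21, -0.23 and -0.11 in scrambled arrays. Without array 1 that probe set was called higher (0.40, adjusted p = 0.0455).

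Dgat2 encodes diacylglycerol acyltransferase 2, which catalyses the last step of triglyceride synthesis. The gene average was 0.51, 0.71 and 0.77 in Sox2 shRNA and -0.22, 0.049 and -0.022 in scrambled arrays. Dgat2 was 1.66-fold higher in Sox2 shRNA cells without overlap (0.73 ± 0.11, adjusted p = 0.0017) and was called under each of the 13 alternatives. Probe set 1422678_at carried most of the rise, with 1.01, 1.08 and 1.10 in Sox2 shRNA and -0.17, 0 and 0.016 in scrambled arrays (1.11 ± 0.099, adjusted p = 1.8e-04). Probe set 1422677_at, aligned to the same span (chr7:106302170-106331225, minus strand), read 0.014, 0.35 and 0.44 in Sox2 shRNA and -0.27, 0.098 and -0.060 in scrambled arrays (0.35 ± 0.15, adjusted p = 0.105). As with the second Lpl probe set, the overlap came from Sox2 shRNA array 1, without which it was called higher (0.47, adjusted p = 0.0165).

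Adipoq encodes adiponectin, a hormone made by mature adipocytes. Its probe set, 1422651_at at chr16:23155287-23158101 on the plus strand, read -0.12, -0.030 and 0.29 in Sox2 shRNA and 0.097, 0 and -0.10 in scrambled arrays. The groups overlapped (0.048 ± 0.12, adjusted p = 0.768), and the sign changed without Sox2 shRNA array 3 (-0.072) or scrambled array 3 (-0.0021). Whether Adipoq was expressed at all in these cells is unknown, since levels were removed.

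**Figure D3:**
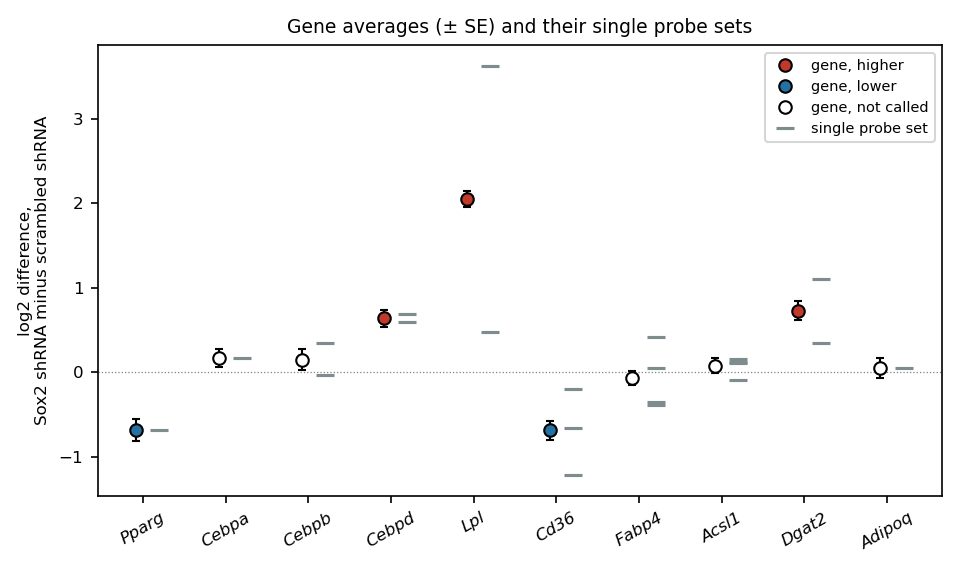
Log2 difference of Sox2 shRNA over scrambled shRNA for each gene average (circles, bars are the SE of limma, n = 3 arrays per group; red higher, blue lower, white not called) and of its single probe sets (grey dashes). The dashes of Lpl lie at 3.63 and 0.48 and those of Cd36 between -1.22 and -0.20.

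Probe sets of 1 gene often disagreed about the size of its change. Of the 7 genes with more than 1 probe set, 5 had both called and uncalled ones, namely Cebpd, Lpl, Cd36, Fabp4 and Dgat2, and 0 had probe sets called in both directions. By difference the genes ran from Lpl (2.05) through Dgat2 (0.73) and Cebpd (0.64), which lay within their SEs of each other, to Cebpa, Cebpb, Acsl1, Adipoq and Fabp4 between 0.17 and -0.070, and then to Pparg (-0.68) and Cd36 (-0.69), again within their SEs. Likeness was measured as the Euclidean distance over the 6 arrays after subtracting each gene's mean over the scrambled arrays. Gpc4, Nipsnap1 and Slit2 were closest to Lpl, at distances of 0.235, 0.271 and 0.335 log2 units, and differed by 1.97, 2.00 and 1.94. Pck2, Ehbp1 and Ogn were closest to Pparg, at distances of 0.231, 0.235 and 0.248 log2 units, and differed by -0.66, -0.68 and -0.69. Numbered predicted genes and RIKEN clones were left out of this search.

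The other genes of adipogenesis and lipid handling also went both ways. Over 7 lists, 135 further genes were measured, of which 32 were called higher and 24 lower (41.5% called, beside 38.5% of all genes), with a median difference of 0.086. Without scrambled array 1, 2 or 3, 18, 18 and 16 of these genes were called higher. Over all genes the higher calls went from 2216 to 1331, 1297 and 1155, so that the loss was not particular to these lists. With the spike-in covariate 12 of the 135 genes were higher and 12 lower, beside 961 and 1166 of all genes. Of 31 adipogenic regulators 8 rose and 6 fell (median 0.098, 45.2% called). Irs1, the insulin receptor substrate, fell by 1.34 (SE 0.097, adjusted p = 6.2e-05), and Ebf3, a factor of the early B-cell factor family, differed by -0.65 ± 0.097 with probe sets from -1.65 to -0.11. Klf5, a Kruppel-like factor that acts in adipocyte differentiation, rose by 0.73 ± 0.081, and Med1, a Mediator subunit that PPAR-gamma binds, by 0.49 ± 0.079 with probe sets from -0.25 to 0.93. Ebf3 and Med1 were not called with the covariate (-0.43 and 0.45), nor Ebf3 with the probe set of highest mean (-0.11). Without scrambled array 1, 2 or 3 this list held 5, 4 and 4 rises, and without scrambled array 1 or 2 it held 3 falls.

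Of 25 genes listed here as inhibitors of adipogenesis 7 rose and 8 fell (median 0.021, 60.0% called beside 38.5% of all genes), or 4 rises without scrambled array 1. The deacetylase Sirt1, a repressor of PPAR-gamma, fell by 1.87 (SE 0.089, adjusted p = 8.1e-06), with -1.81, -1.73 and -1.93 in Sox2 shRNA and 0.022, 0 and 0.11 in scrambled arrays. Id2, an inhibitor of DNA binding, differed by -0.90 ± 0.088 as an average, but its 3 probe sets ranged from -1.44 to 0.030 and the one of highest mean stood at 0.030. Whether Id2 restrains or favours adipogenesis in these cells was not tested. Gata2, a GATA factor that holds cells in the preadipocyte state, rose by 1.21 ± 0.12, and the cytokine interleukin 6, Il6, by 2.71 ± 0.21. Members of this list thus went both ways.

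Around lipoprotein lipase and fatty acid uptake 5 of 23 genes rose and 2 fell (median 0.076, 30.4% called). Angptl4, a secreted inhibitor of lipoprotein lipase, rose by 0.99 ± 0.096 (adjusted p = 2.3e-04, probe sets at 0.39 and 1.59), with 1.0, 0.99 and 1.03 in Sox2 shRNA and 0.16, 0.022 and -0.13 in scrambled arrays. The enzyme and its inhibitor were thus both higher. The acyl-CoA synthetase Acsl6 rose by 0.94 ± 0.10 and the fatty acid transporter Slc27a1 by 0.76 ± 0.097, while the endocytic receptor Lrp1 fell by 1.02 (SE 0.083). Without scrambled array 1, 2 or 3, 1 gene of this list fell.

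Of 21 genes of lipid droplets and triglyceride synthesis 2 rose and 2 fell (median 0.061; 19.0% called). The caveolin Cav1 (0.80 ± 0.11) and the phosphatidate phosphatase Lpin3 (0.40 ± 0.10) rose, and glycerol kinase, Gk (-0.72 ± 0.080), and the acyltransferase Agpat3 (-0.54 ± 0.11) fell. Lpin3 was not called without scrambled array 2 or 3 (0.38 and 0.36) or with the covariate (0.11). The measured perilipins, coat proteins of the droplet named here as a family, were not called, Plin2 at -0.21, Plin3 at 0.0017, Plin4 at -0.18 and Plin5 at 0.19. Among 9 lipolysis genes 3 were called higher and 0 lower (median 0.32, 33.3% called beside 38.5% of all genes). These were the triglyceride lipase Pnpla2 (0.37 ± 0.099), the lysosomal lipase Lipa (0.31 ± 0.094) and the amide hydrolase Faah (0.41 ± 0.14). The receptor Adrb3 was at 0.33 ± 0.11 (limma adjusted p = 0.0515). In the lipolysis list 0 genes were called without scrambled array 1, 2 or 3, and 1 without Sox2 shRNA array 2, with median-centred arrays or with the covariate. The covariate ended the calls of Pnpla2 (0.29), Lipa (0.37) and Faah (0.18).

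Of 23 PPAR targets outside the 10 genes 8 rose and 4 fell (median 0.12, 52.2% called beside 38.5% of all genes). The list shares 5 measured genes with the droplet list, 2 with the lipolysis list and 1 with the uptake list. The rises of Angptl4 and Pnpla2 were thus counted above as well. Without scrambled array 1, 2 or 3 the list held 4, 4 and 3 rises, and with the covariate 4. Pdk4, a kinase that restrains pyruvate dehydrogenase, fell by 1.81 (SE 0.17, adjusted p = 1.8e-04), and Acadm, the medium-chain acyl-CoA dehydrogenase, by 1.34 (SE 0.11), beside Gk, while Angptl4 rose. Among 11 other adipokines and receptors 1 was called higher and 3 lower (median 0.043, 36.4% called). The adiponectin receptor Adipor1 (-0.51 ± 0.079) and the peptide apelin, Apln (-1.22 ± 0.27), were among those that fell, and 0 of the 11 were called with the covariate (Adipor1 at -0.45, Apln at -0.27). Apln read -1.76, -0.60 and -1.08 in Sox2 shRNA and -0.16, 0.28 and 0.095 in scrambled arrays. Resistin, Retn, was called at 0.45 ± 0.15 (adjusted p = 0.0479), but not without any of the 3 scrambled arrays or with the covariate (-0.061), and stood at 0.83 on Sox2 shRNA array 1, with 0.29 and 0.26 on arrays 2 and 3.

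**Figure D4:**
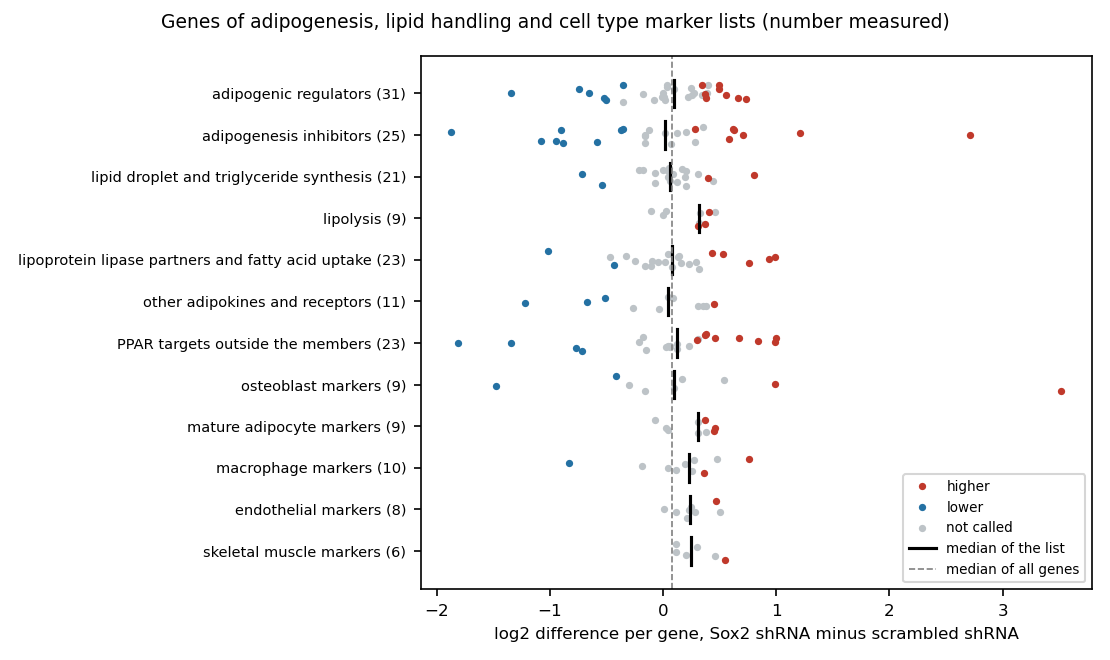
Log2 difference of Sox2 shRNA over scrambled shRNA for each measured gene (points; red higher, blue lower, grey not called) in 7 pathway lists and 5 marker lists, with the number measured in brackets, the median of each list (black bar) and the median of all genes (dashed line, 0.078). Points of most lists fall on both sides of 0, and the list medians lie between 0.021 and 0.32.

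Marker lists of cell types were read beside these results, because macrophages, endothelium and muscle also express some of the 10 genes. Of 9 mature adipocyte markers, 2 of them among the 10 genes, 3 were called higher and 0 lower (median 0.31), and the list averaged 0.27, 0.28 and 0.28 in Sox2 shRNA and -0.0044, 0.075 and -0.012 in scrambled arrays. The glucose transporter Slc2a4 (0.46 ± 0.11), Pnpla2 and Retn made up the calls, and Slc2a4 and Pnpla2 were not called without scrambled array 1, 2 or 3. Cidec, a droplet protein, was at 0.31 ± 0.11 (adjusted p = 0.0514). Of 10 macrophage markers 2 were called higher and 1 lower (median 0.23), led by the receptor Csf1r (0.76 ± 0.084) and, lower, Cd14 (-0.83 ± 0.13), with list averages of 0.098 to 0.21 in Sox2 shRNA and -0.041 to 0.037 in scrambled arrays. Adgre1 was at 0.36 ± 0.12 and lost its call without each scrambled array. Of 8 endothelial markers 1 was called, Egfl7 (0.47 ± 0.14), not held without scrambled array 1, 2 or 3 or Sox2 shRNA array 2, and Kdr, Vwf and Cdh5 were at 0.50, 0.23 and 0.25. Of 6 muscle markers desmin, Des, was called (0.55 ± 0.11). The endothelial list averaged 0.43, 0.13 and 0.19 in Sox2 shRNA and -0.031 to 0.020 in scrambled arrays, and the muscle list 0.52, 0.26 and 0.088 in Sox2 shRNA and -0.049 to 0.037 in scrambled arrays, highest on the array with the highest spike-in level. Osteoblast markers, 2 higher and 2 lower of 9 (median 0.093), included Col1a1 (3.52 ± 0.096), Alpl (0.99 ± 0.12), Phex (-1.48 ± 0.095, with probe sets at -3.24 and 0.29) and Col1a2 (-0.42 ± 0.13, not called without any of the 3 scrambled arrays). With the spike-in covariate the calls of Slc2a4 (0.46), Pnpla2 (0.29), Retn (-0.061), Cd14 (-0.51), Adgre1 (-0.015), Egfl7 (0.056) and Col1a2 (0.016) were lost. Which of these markers lay at background is unknown, and the part of other cell types in the results was not tested.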

How the data were processed

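RNA of 6 cultures, 3 per hairpin, was hybridised to 1-colour arrays. The deposited log2 values were made by the authors with GCOS 1.4 and RMA, per the submitters' processing notes. No source used here gives the log base, the RMA settings or the centring. The series' 2 tables agreed in every cell (0 differed). A value of exactly 0 stood in 37.5% of probe sets on scrambled array 2 and in at most 0.0705% on any other array, the mark of centring per probe set. Centring keeps differences between arrays and removes levels, and the number of arrays limits the precision.

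From these values, 64 array controls, 578 probe sets naming several genes and 543 naming none were left out. Symbols were updated through Entrez numbers and RefSeq (21181 of 21556 probe sets matched, 1735 symbols updated), and each gene was taken as the mean of its probe sets. The groups were compared with limma 3.58.1 (R 4.3.3, lmFit and eBayes, all 6 arrays, no covariate), with Benjamini-Hochberg adjustment over all probe sets or all genes and a threshold of 0.05, after a test on simulated data. The alternatives are given in the closing section. No test was run on lists. From each list up to 4 genes of smallest adjusted p outside the 10 were named, and others only where said. Of the genes this rule names, 1 is not reported here. The members, lists and alternatives were chosen with earlier results of these data known. Figures were drawn with matplotlib 3.10.9.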

Additional observations from a re-analysis of the deposited data

Results flagged for a closer look

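The array control probe sets, which belong to no gene comparison, differed between the groups. The mean of the 45 spike-in probe sets was 0.42 on the Sox2 shRNA arrays and -0.019 on the scrambled arrays, a difference of 0.44 on the log2 scale (two-sided exact permutation p = 0.1, the smallest that 3 against 3 arrays can give). The 18 hybridisation controls differed by 0.84, with 1.26, 0.58 and 0.56 on Sox2 shRNA arrays 1 to 3 and 0.24, -0.13 and -0.22 on scrambled arrays 1 to 3. The 27 poly-A controls differed by 0.17. The part of this level in the differences of the 10 genes was not tested beyond the fit with it as a covariate. No group had enough arrays to look for a single array far from the others.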

How the results depend on the processing

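The 13 alternatives were the replicate block, the other deposited table, median-centred arrays, the probe set of highest mean, no _x_at and _s_at probe sets, a trend and robust prior, the spike-in covariate and each of the 6 arrays left out. Lpl and Dgat2 were called higher under all 13. Some of the 13 could not weaken these calls. The other deposited table held the same values, and neither gene has an _x_at or _s_at probe set. The highest mean took the more upward probe set of each (3.63 and 1.11). The covariate ended the calls of Pparg (-0.50) and Cebpd (0.61), and the highest mean that of Cd36 (-0.20), and each was called under the other 12. For these genes too, the other deposited table and the removal of _x_at and _s_at probe sets left the values the same. Pparg has 1 probe set, so the highest mean repeats its values. Cebpb ranged from 0.060 to 0.28 and Adipoq from -0.072 to 0.13 over the arrays left out. With the covariate 5 of the 22 probe sets were called higher, 2 lower and 1 of the 10 genes lower, and 1 gene was lower with the highest mean. Over all genes, leaving out single arrays gave 1155 to 2695 higher and 1944 to 3135 lower calls. Over the 22 probe sets it gave 2 to 7 higher and 3 to 6 lower. Over the other pathway genes it gave 16 to 38 higher and 18 to 29 lower. These pathway genes came to 12 higher and 12 lower with the covariate, and 15 lower with the highest mean. Signs turned with the covariate in Cebpa (-0.070), 1427844_a_at of Cebpb (0.43), 1456605_at of Cebpd (-0.11), 1422526_at (0.029) and 1460316_at (-0.046) of Acsl1, Adgre1 (-0.015), Adrb3 (-0.019), Cdh5 (-0.070), Ckm (-0.092), Col1a2 (0.016), Myog (-0.22), Retn (-0.061) and Ebf2 (-0.12), and with the highest mean in Fabp4 (0.42), Id2 (0.030) and Phex (0.29). Over arrays left out 1427844_a_at ranged from -0.15 to 0.12 and 1424155_at of Fabp4 from -0.072 to 0.16. Lists with counts moved over 1.5 times by the covariate gave 2 higher and 2 lower adipogenic regulators (8 and 6 otherwise), 3 and 5 inhibitors (7 and 8), 1 higher droplet gene (2), 1 higher lipolysis gene (3), 3 higher and 1 lower uptake gene (5 and 2), 0 and 0 adipokines (1 and 3) and 4 higher PPAR targets (8). The highest mean gave 2 lower regulators, 4 lower inhibitors, 8 higher uptake genes and 0 higher adipokines, and that last count was 0 also with median-centring and the trend prior and 2 with the replicate block. Over all 13213 genes the covariate left 961 higher and 1166 lower and the highest mean 2512 and 1900 (2216 and 2874 otherwise). The counts with the highest mean follow in part from its choice of upward probe sets on centred values. Other causes were not tested. The covariate leaves fewer residual degrees of freedom. Its level also went with the group, without overlap, so that the fit separates the 2 poorly. The SE of Pparg was 0.22 with the covariate and 0.13 without it, and that of Cebpd 0.17 and 0.099.

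The labels number the arrays 1 to 3 in both groups. Same-numbered arrays' deviations from their group means correlated over probe sets at 0.125, -0.0203 and 0.173, so the numbers were not taken as pairs. With the replicate block 2136 genes were higher and 2784 lower, 1423233_at of Cebpd was called (0.60, limma adjusted p = 0.0477), and the call of each of the 10 genes stood. With median-centred arrays 1836 genes were higher and 3146 lower. Values are centred, so signal over background limits the reading of each probe set to an unknown degree.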

Other observations

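Further genes of the lists are given here, chosen after their values were seen. They do not stand for their lists, as 7 of the 25 inhibitors rose and 8 fell. Inhibitors called higher but not named elsewhere were Tnf (0.71), Pdgfrb (0.63), Wnt10a (0.58) and Sox9 (0.28). Those called lower and not named elsewhere were Nr2f2 (-0.58), Wwtr1 (-0.37) and Ncor1 (-0.35). The inhibitor of DNA binding Id3 read -1.42, -0.99 and -0.87 in Sox2 shRNA and -0.13, 0 and 0.11 in scrambled arrays, and fell by 1.08 (SE 0.15, limma adjusted p = 0.00117). The mesenchymal factors Twist1 (-0.88 ± 0.096) and Foxc2 (-0.95 ± 0.12) fell as well, and all 3 were called under each alternative. Each has 1 probe set, so the highest mean repeats its values, as does the other deposited table. Ebf1, an early B-cell factor of preadipocytes, fell by 0.74 (SE 0.12) with probe sets from -1.18 to -0.24, but was not called with the highest mean (-0.24) or the covariate (-0.43), and Ebf2 was at 0.27 ± 0.13. The preadipocyte surface protein Dlk1 was higher (0.62 ± 0.15, adjusted p = 0.0131), not called without scrambled array 1 (0.50) or with the covariate (0.50).

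Genes of fatty acid oxidation and energy use differed in sign. The peroxisomal thiolase Acaa1a (1.0 ± 0.24) and the mitochondrial carrier Ucp2 (0.84 ± 0.12) were higher, and malic enzyme, Me1, was lower (-0.77 ± 0.14), beside the lower Acadm and Pdk4. None of Acaa1a, Ucp2 and Me1 was called with the covariate (0.061, 0.54 and -0.30). Acaa1a read 1.61, 0.72 and 0.86 in Sox2 shRNA and 0.34, 0.0019 and -0.16 in scrambled arrays and was not called without scrambled array 3 (0.89). Cpt1a, the carnitine palmitoyltransferase of the outer mitochondrial membrane, was called at 0.38 ± 0.11 (adjusted p = 0.031), but not without Sox2 shRNA array 2 or 3 (0.35 and 0.33) or scrambled array 1, 2 or 3 (0.41, 0.31 and 0.44), nor with median-centred arrays (0.34), the probe set of highest mean or no _x_at and _s_at probe sets (0.44 in both).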
